A study of Mus musculus with 32 samples.

Results

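The genes described here are 9 components of the Nodal and activin pathway in mouse E14TG2a embryonic stem (ES) cells, chosen by name from 19613 genes on the arrays: the ligands and ligand subunits Nodal, Gdf3, Inhba and Inhbb, the co-receptor gene Tdgf1, the secreted inhibitor genes Lefty1 and Lefty2, the intracellular inhibitor gene Smad7 and the transcription factor gene Foxh1. Every probe annotated to 1 of these symbols and to no other gene was used, whatever its values, which gave 16 probe sets for all 9 genes on the RNA interference (RNAi) arrays and 7 probes for 6 genes on the 2-colour arrays. Lefty2, Inhba and Smad7 were not analysed on the 2-colour arrays. The 9 genes were chosen with earlier results of these data known.

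The RNAi experiment had 4 Affymetrix arrays from cells transfected with constructs for Pou5f1 RNAi (Pou5f1 encodes Oct4), 5 from cells with Nanog RNAi and 5 from cells with the pSUPER-puro parental vector. All 3 groups were transfected by lipofection and selected with 1 µg/ml puromycin for 3 days, beginning 24 h after transfection. In the differentiation experiment, E14TG2a cells were treated with 0.1 µM retinoic acid (RA), 1% dimethyl sulfoxide (DMSO) or 3 mM hexamethylene bisacetamide (HMBA) for 2, 4 or 6 days, and each treatment and day was measured on 2 arrays of opposite dye orientation against 1 common reference, untreated E14 cells. The labels do not say whether replicates came from separate cultures, so the p-values measure the spread between arrays, which may be technical.

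Nodal, activins and GDF3 are secreted proteins of the transforming growth factor beta family. They bind activin receptors, and Nodal and GDF3 also need a co-receptor such as Cripto, the protein of Tdgf1. The receptors phosphorylate Smad2 and Smad3, which enter the nucleus with Smad4 and act on DNA together with partners such as Foxh1. Nodal, Lefty1 and Lefty2 are themselves targets of the pathway, so the Lefty proteins limit the signal that induces them. In the early embryo the pathway maintains the epiblast and directs formation of mesoderm and endoderm, and it is active in cultured ES cells.

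Promoter windows of the 250 bases before the gene start were matched for 4 of the 9 genes in RefSeq sequence of build GRCm38.p6. The windows of Nodal, Tdgf1 and Inhbb are printed because these 3 genes had the 3 contrasting responses to RNAi described below. Each is written 5′ to 3′ on the strand of its gene, and the capitals mark the only match to the Smad-binding core CAGAC, searched on both strands.
Nodal, chr10:61417722-61417971, plus strand: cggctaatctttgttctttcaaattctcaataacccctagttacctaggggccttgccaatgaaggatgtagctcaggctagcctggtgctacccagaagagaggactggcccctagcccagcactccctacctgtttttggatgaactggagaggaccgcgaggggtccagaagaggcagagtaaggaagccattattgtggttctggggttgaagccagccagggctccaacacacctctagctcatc
Tdgf1, chr9:110946159-110946408, minus strand: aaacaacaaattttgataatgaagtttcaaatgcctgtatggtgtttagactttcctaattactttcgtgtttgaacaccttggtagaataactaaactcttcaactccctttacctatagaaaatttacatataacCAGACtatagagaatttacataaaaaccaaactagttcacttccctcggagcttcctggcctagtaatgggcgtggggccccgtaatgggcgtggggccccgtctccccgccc
Inhbb, chr1:119422249-119422498, minus strand: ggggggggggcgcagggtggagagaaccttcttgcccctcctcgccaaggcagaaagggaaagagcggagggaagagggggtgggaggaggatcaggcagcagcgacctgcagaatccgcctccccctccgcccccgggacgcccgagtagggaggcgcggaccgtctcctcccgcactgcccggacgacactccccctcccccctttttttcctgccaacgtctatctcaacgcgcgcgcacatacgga
The CAGAC match in Tdgf1 lies 113 to 109 bases before the start, and 42.2% of 32851 promoter windows of this length held such a match, against 1 of the 4 windows of the pathway genes. The octamer ATGCAAAT, the sequence that Oct4 recognises, was found in 1.6% of all windows and in 0 of the 4. The forms TGTGGATT, TGTGTATT, TGTTGATT and TGTTTATT, which are bound by Foxh1, were found in 3.93% of all windows and in 0 of the 4. These counts describe the letters of short windows, and binding was not measured.

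Array medians on the RNAi arrays lay between 4.57 and 4.66, and arrays of 1 group correlated at 0.990 to 0.997. Levels and differences are log2 values throughout. The Pou5f1 probe set was at 8.73 to 9.21 on the Pou5f1 RNAi arrays, at 11.18 to 11.51 on the Nanog RNAi arrays and at 11.31 to 11.51 on the vector arrays. The Nanog probe set was at 9.57 to 9.82 on the Pou5f1 RNAi arrays, at 9.14 to 9.47 on the Nanog RNAi arrays and at 11.00 to 11.19 on the vector arrays. Both knockdowns are therefore visible, and Nanog was low on all 9 knockdown arrays. Other cell identities moved with the groups. The mean level of 9 ES cell markers was 9.41 to 9.62 after Pou5f1 RNAi, 10.48 to 10.58 after Nanog RNAi and 11.00 to 11.09 with vector. Trophectoderm markers rose at 8 of 8 genes after Pou5f1 RNAi and at 7 of 8 after Nanog RNAi, with a mean level of 8.94 to 9.13 after Pou5f1 RNAi, 6.44 to 6.94 after Nanog RNAi and 5.51 to 5.61 with vector. Primitive endoderm markers fell at 5 of 6 genes after Pou5f1 RNAi, and 1 of 6 rose after Nanog RNAi. The mean of 8 feeder fibroblast markers was 4.16 to 4.37 on every array and that of 5 mesoderm markers 4.41 to 4.88, near the array medians. The part of these other cell types in the changes described below was not tested, and on RNA from whole cultures fewer cells of a type cannot be told apart from less RNA per cell.

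After Pou5f1 RNAi the ligand genes Nodal and Gdf3, the co-receptor gene Tdgf1, both Lefty genes and Foxh1 fell at every probe set, with differences from vector of -2.85 to -0.71. After Nanog RNAi Nodal rose 2.01-fold and 2.04-fold at its 2 probe sets, Foxh1 rose at 2 of 3 probe sets, Tdgf1 fell slightly, Smad7 fell at 1 of 2 probe sets, and Inhbb fell 3.48-fold at 1 probe set and 1.25-fold at the other. Against vector, limma called 12 of 16 probe sets after Pou5f1 RNAi at an adjusted p under 0.05, 11 lower and 1 higher, where 31.6% of all 45037 probe sets were called (15.6% lower and 16% higher). After Nanog RNAi 8 of 16 were called, 4 higher and 4 lower, where 15.6% of all probe sets were called (8.8% higher and 6.78% lower). The changes were also larger than most, since 10 of the 16 were called and moved by at least 1 after Pou5f1 RNAi (5.97% of all) and 3 of the 16 after Nanog RNAi (1.09% of all). The median difference of the 16 probe sets from vector was -1.52 after Pou5f1 RNAi, where the median of all probe sets was -0.04, and -0.02 after Nanog RNAi, where the median of all was also -0.02. Both comparisons use the same 5 vector arrays. Directly between the knockdowns, Pou5f1 RNAi over Nanog RNAi, 13 of 16 were called, 10 lower and 3 higher. Of all probe sets 29.5% were called there (14.5% lower and 15% higher). These shares of all include probe sets of low level. Among the 19564 with a mean level of at least 5 over all arrays, 59.8% were called after Pou5f1 RNAi. Of the probe sets described here 13 met that level, and 12 of them were called. After Nanog RNAi 7 of 13 were called (33.9% of all at that level), and between the knockdowns 12 of 13 (56.3%). The excess over all probe sets was therefore smaller at that level. Because the genes were chosen with earlier results of these data known, no excess over all probe sets is independent of that choice. Shares by size of change were not counted there.

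**Figure D1:**
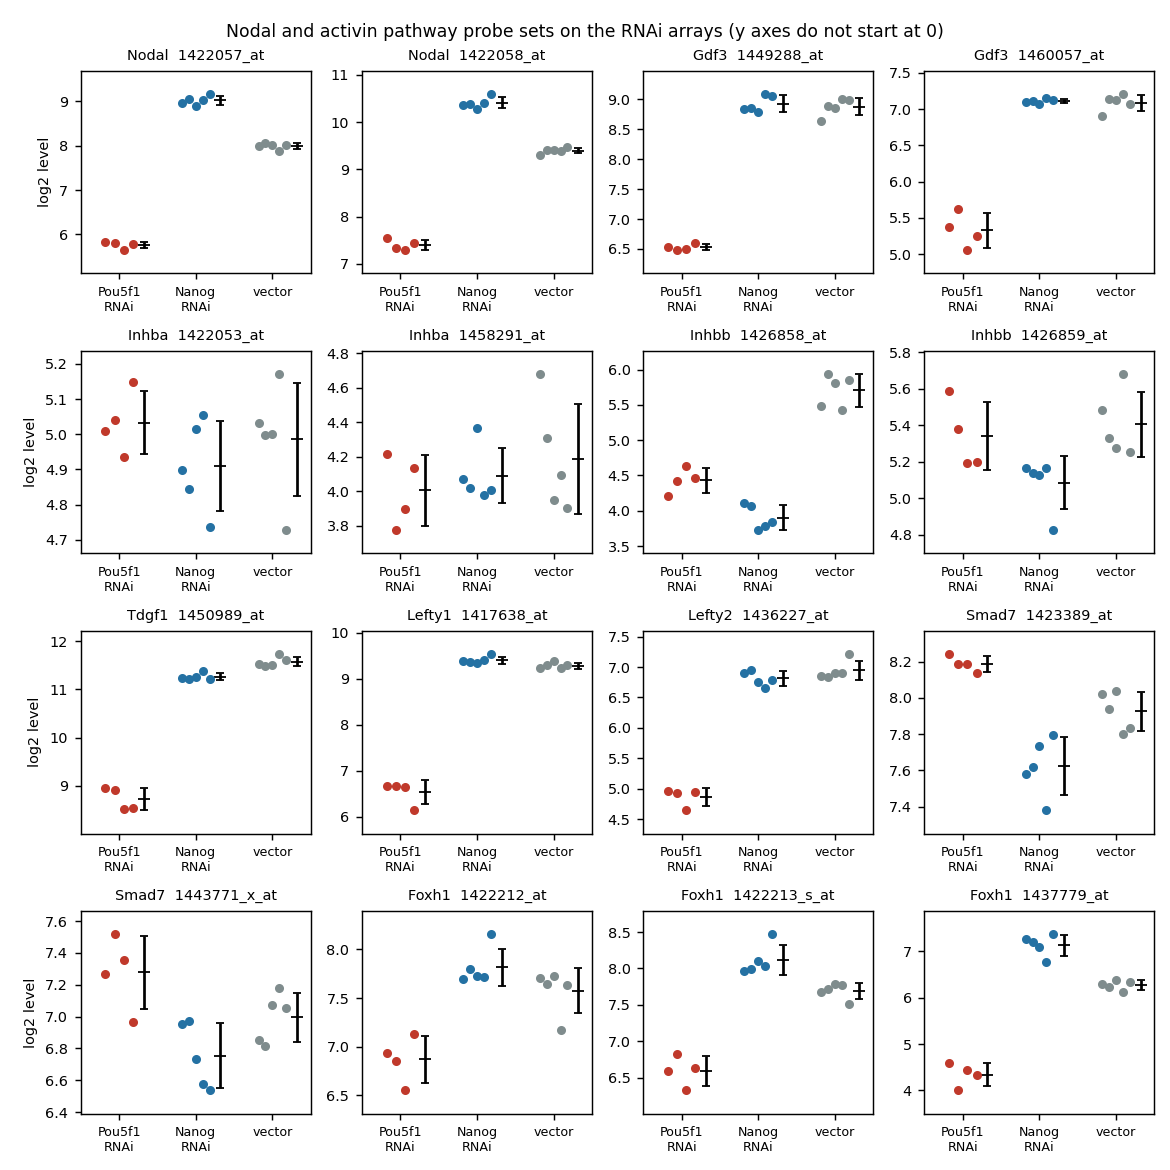
Log2 level of each of the 16 probe sets on the 4 Pou5f1 RNAi, 5 Nanog RNAi and 5 vector arrays, 1 point per array, with the group mean ± SD beside the points. Each panel has its own y axis, which does not start at 0. The 3 groups stand apart at both Nodal probe sets, and the 2 Inhba panels show overlapping groups.

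Nodal, the founding ligand of the pathway, was the gene for which the knockdowns differed most. Its probe set 1422058_at was at 7.54, 7.35, 7.30 and 7.44 on the Pou5f1 RNAi arrays, at 10.35, 10.38, 10.29, 10.41 and 10.59 on the Nanog RNAi arrays and at 9.30, 9.42, 9.41, 9.38 and 9.46 on the vector arrays. The 3 groups did not overlap, with Pou5f1 RNAi lowest and Nanog RNAi highest. The difference from vector was -1.99 ± 0.08 (SE) after Pou5f1 RNAi, 3.97-fold lower (limma adjusted p = 3.61e-14), and 1.01 ± 0.07 after Nanog RNAi, 2.01-fold higher (adjusted p = 3.64e-09). The second probe set, 1422057_at, was at 5.82, 5.80, 5.65 and 5.78 after Pou5f1 RNAi, at 8.95, 9.06, 8.90, 9.03 and 9.17 after Nanog RNAi and at 7.99, 8.06, 8.03, 7.88 and 8.01 with vector. It gave the same picture, 4.70-fold lower after Pou5f1 RNAi and 2.04-fold higher after Nanog RNAi. Between the knockdowns the 2 probe sets were 8.01-fold and 9.58-fold lower with Pou5f1 RNAi than with Nanog RNAi.

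Gdf3, a ligand that shares the Cripto co-receptor with Nodal, fell after Pou5f1 RNAi and was not called after Nanog RNAi. Probe set 1449288_at was at 6.53, 6.49, 6.51 and 6.60 on the Pou5f1 RNAi arrays, at 8.84, 8.86, 8.79, 9.09 and 9.06 on the Nanog RNAi arrays and at 8.65, 8.88, 8.86, 9.01 and 8.99 on the vector arrays. The Pou5f1 RNAi arrays lay far below both other groups, which overlapped. The difference was -2.35 ± 0.09 after Pou5f1 RNAi, 5.09-fold lower (adjusted p = 1.53e-14), and 0.05 after Nanog RNAi with a 95% interval of -0.12 to 0.22 (adjusted p = 0.777). At 1460057_at the levels were 5.06 to 5.62 after Pou5f1 RNAi, 7.07 to 7.15 after Nanog RNAi and 6.91 to 7.21 with vector, and the difference was -1.76 ± 0.09 after Pou5f1 RNAi.

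The activin subunit genes behaved differently from Nodal and Gdf3. Inhbb, which encodes the beta B subunit of activin B, had levels of 4.21, 4.42, 4.64 and 4.47 at 1426858_at on the Pou5f1 RNAi arrays, of 4.10, 4.07, 3.73, 3.78 and 3.84 on the Nanog RNAi arrays and of 5.49, 5.93, 5.82, 5.43 and 5.86 on the vector arrays. It was the member that fell furthest after Nanog RNAi, and the groups did not overlap. The difference from vector was -1.27 ± 0.12 after Pou5f1 RNAi, 2.41-fold lower (adjusted p = 1.90e-08), and -1.80 ± 0.11 after Nanog RNAi, 3.48-fold lower (adjusted p = 2.58e-10). The levels in both knockdowns lie at or below the array medians and no detection calls were used, so whether they are above background is not known and these folds are uncertain. No fold is given between the knockdowns. The other Inhbb probe set, 1426859_at, was at 5.59, 5.38, 5.19 and 5.20 after Pou5f1 RNAi, at 5.17, 5.14, 5.13, 5.17 and 4.83 after Nanog RNAi and at 5.48, 5.33, 5.27, 5.68 and 5.25 with vector. It disagreed in size, at -0.07 after Pou5f1 RNAi (adjusted p = 0.711) and -0.32 ± 0.10 after Nanog RNAi (adjusted p = 0.0329), so the fall of Inhbb rests largely on 1 probe set. That smaller call was lost without Nanog RNAi replicate 5 (-0.25), vector replicate 1 (-0.30) or vector replicate 4 (-0.25).

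Inhba, which encodes the beta A subunit of activin A, was not called in any of the 3 RNAi comparisons by limma. Its probe sets lay near or below the middle of the arrays, at 4.94 to 5.15 after Pou5f1 RNAi, 4.74 to 5.06 after Nanog RNAi and 4.73 to 5.17 with vector for 1422053_at, and at 3.78 to 4.21 after Pou5f1 RNAi, 3.98 to 4.37 after Nanog RNAi and 3.91 to 4.68 with vector for 1458291_at. The 95% intervals of the difference from vector were -0.14 to 0.24 and -0.46 to 0.10 after Pou5f1 RNAi, and -0.25 to 0.10 and -0.36 to 0.17 after Nanog RNAi.

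Tdgf1, which encodes the membrane-anchored co-receptor Cripto, had the largest fall of the 16 probe sets after Pou5f1 RNAi. Probe set 1450989_at was at 8.95, 8.91, 8.52 and 8.53 on the Pou5f1 RNAi arrays, at 11.23, 11.22, 11.26, 11.38 and 11.21 on the Nanog RNAi arrays and at 11.54, 11.49, 11.51, 11.73 and 11.61 on the vector arrays. The 3 groups did not overlap, although Nanog RNAi and vector lay close together. The difference was -2.85 ± 0.09 after Pou5f1 RNAi, 7.20-fold lower (adjusted p = 2.28e-15), and -0.31 ± 0.09 after Nanog RNAi, 1.24-fold lower (adjusted p = 0.0179). Without vector replicate 4 the Nanog RNAi difference was -0.28 and no longer called (adjusted p = 0.0543).

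Lefty1 and Lefty2 encode secreted inhibitors that block Nodal signalling. The 2 genes are close copies of each other, and whether their probe sets also bind the other transcript was not tested. Lefty1 probe set 1417638_at was at 6.68, 6.67, 6.65 and 6.14 on the Pou5f1 RNAi arrays, at 9.39, 9.35, 9.33, 9.40 and 9.53 on the Nanog RNAi arrays and at 9.22, 9.29, 9.38, 9.23 and 9.29 on the vector arrays. Lefty2 probe set 1436227_at was at 4.96, 4.93, 4.65 and 4.94 after Pou5f1 RNAi, at 6.90, 6.96, 6.76, 6.66 and 6.79 after Nanog RNAi and at 6.86, 6.84, 6.90, 6.91 and 7.21 with vector. For both genes the Pou5f1 RNAi arrays lay below all others, while the Nanog RNAi and vector arrays overlapped. Lefty1 fell by 2.75 ± 0.10 after Pou5f1 RNAi, 6.70-fold (adjusted p = 6.90e-15), and Lefty2 fell by 2.07 ± 0.09, 4.21-fold (adjusted p = 3.04e-13). The Lefty2 levels after Pou5f1 RNAi lie near the array medians. Whether they are above background is not known, so the 4.21-fold size is uncertain. After Nanog RNAi the differences were 0.12 for Lefty1 (95% interval -0.07 to 0.31) and -0.13 for Lefty2 (-0.31 to 0.05), neither called.

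Smad7, an intracellular protein that blocks the activated receptors, was the only one of the 9 genes called higher after Pou5f1 RNAi, and the change was small. Probe set 1423389_at was at 8.24, 8.18, 8.18 and 8.14 on the Pou5f1 RNAi arrays, at 7.58, 7.62, 7.73, 7.38 and 7.79 on the Nanog RNAi arrays and at 8.02, 7.94, 8.04, 7.80 and 7.83 on the vector arrays. The groups did not overlap, in the reverse order of Nodal. The difference was 0.26 ± 0.09 after Pou5f1 RNAi (adjusted p = 0.0232) and -0.30 ± 0.08 after Nanog RNAi (adjusted p = 0.0117). The rise was not called without Pou5f1 RNAi replicate 1 (0.24) or without vector replicate 4 (0.23). Probe set 1443771_x_at, whose suffix marks probes that may match other transcripts, was at 6.97 to 7.52 after Pou5f1 RNAi, 6.54 to 6.97 after Nanog RNAi and 6.82 to 7.18 with vector, with all groups overlapping. It gave 0.28 after Pou5f1 RNAi (adjusted p = 0.0738) and -0.24 after Nanog RNAi (adjusted p = 0.168). The first of these was called without Pou5f1 RNAi replicate 4 (0.38) or vector replicate 4 (0.33). Between the knockdowns both probe sets were called, at 0.57 ± 0.09 and 0.52 ± 0.12 for Pou5f1 RNAi over Nanog RNAi.

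Foxh1, the DNA-binding partner of Smad2 and Smad3 complexes, changed in the same 2 directions as Nodal, with sizes that differed between its 3 probe sets. Probe set 1437779_at was at 4.59, 4.00, 4.45 and 4.33 on the Pou5f1 RNAi arrays, at 7.25, 7.19, 7.09, 6.77 and 7.36 on the Nanog RNAi arrays and at 6.30, 6.24, 6.38, 6.12 and 6.34 on the vector arrays. The groups did not overlap. The difference was -1.93 ± 0.12 after Pou5f1 RNAi, 3.81-fold lower (adjusted p = 3.38e-11), and 0.86 ± 0.11 after Nanog RNAi, 1.81-fold higher (adjusted p = 1.05e-05). The levels after Pou5f1 RNAi lie at or below the array medians. Whether they are above background is not known, so the 3.81-fold size is uncertain. At 1422213_s_at the levels were 6.32 to 6.82 after Pou5f1 RNAi, 7.97 to 8.47 after Nanog RNAi and 7.52 to 7.78 with vector, and the differences were -1.10 ± 0.11 after Pou5f1 RNAi and 0.42 ± 0.10 after Nanog RNAi, both called. At 1422212_at the levels were 6.55 to 7.14 after Pou5f1 RNAi, 7.69 to 8.15 after Nanog RNAi and 7.17 to 7.73 with vector, and the differences were -0.71 ± 0.13 after Pou5f1 RNAi, called, and 0.24 ± 0.12 after Nanog RNAi, not called (adjusted p = 0.221).

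**Figure D2:**
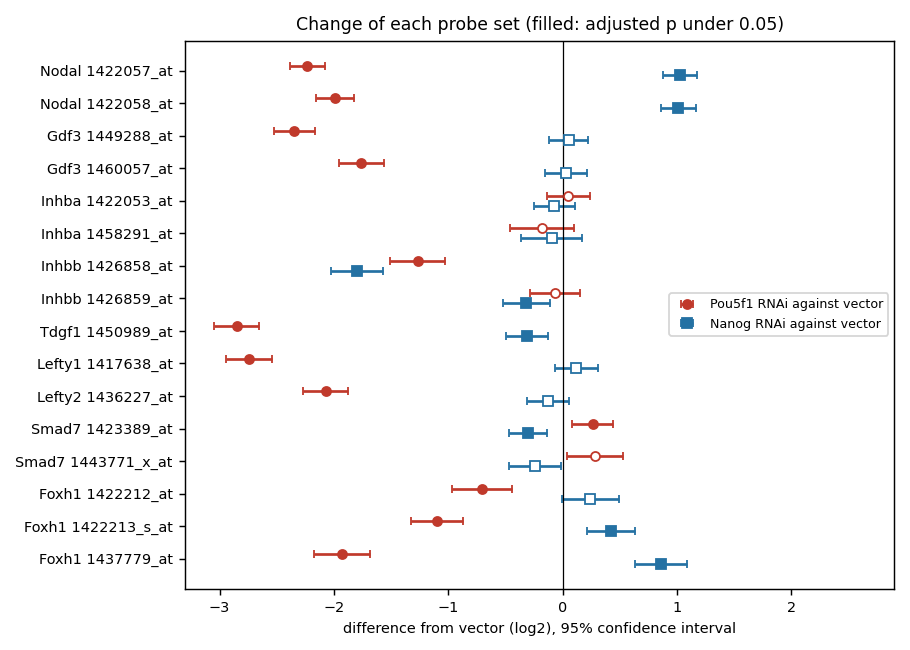
Difference of each probe set from vector on the log2 scale (points) with its 95% confidence interval (bars), Pou5f1 RNAi in red circles and Nanog RNAi in blue squares, filled where the adjusted p is under 0.05. After Pou5f1 RNAi 11 filled points lie below 0 and 1, Smad7, above it. After Nanog RNAi the Nodal and Foxh1 probe sets lie above 0 and the Inhbb, Tdgf1 and Smad7 probe sets below it.

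Groups whose arrays do not overlap were found at 12 probe sets after Pou5f1 RNAi (27.8% of all probe sets) and at 8 after Nanog RNAi (11.3% of all), the same number as the calls in both cases. For 5 of the genes the probe set of highest mean level was set against all other named genes over the 9 knockdown arrays, each array minus the mean of the vector arrays, and likeness was the root mean square of the differences. Nodal was closest to Dppa3, at 0.0887, which averaged -2.01 after Pou5f1 RNAi and 0.91 after Nanog RNAi. Slc27a2 and Mylpf followed at 0.126 and 0.127. Gdf3 was closest to Rpl39l (0.122), to Pou5f1 itself (0.174) and to Platr10 (0.184). The nearest genes to Tdgf1 were Etv5 (0.183), Ifitm3 (0.202) and Elavl2 (0.236), and those to Lefty1 were Pitpnc1 (0.172), Platr10 (0.25) and Enpp3 (0.253). For Inhbb the rule took 1426859_at, the probe set that changed little, and its nearest genes were Rgs9 (0.0759), Mapk8ip2 (0.106) and Slc9b2 (0.107). Likeness over so few arrays describes these profiles only.

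Of 40 other genes of the pathway, listed by role, 36 were measured on the RNAi arrays. After Pou5f1 RNAi 15 rose, 4 fell and 17 were not called, and after Nanog RNAi 9 rose, 3 fell and 24 were not called. Of all probe sets 16% rose and 15.6% fell after Pou5f1 RNAi, and 8.8% rose and 6.78% fell after Nanog RNAi. Directly between the knockdowns 12 were higher and 5 lower after Pou5f1 RNAi, where 15% of all probe sets were higher and 14.5% lower. Each gene was taken at its probe set of highest mean level, while these shares include probe sets of low level. Among probe sets with a mean level of at least 5, 59.8% were called after Pou5f1 RNAi, 33.9% after Nanog RNAi and 56.3% between the knockdowns. How many of the 36 met that level was not counted, so their counts are not read as an excess. The median difference of the 36 from vector was 0.03 after Pou5f1 RNAi and 0.05 after Nanog RNAi, where the medians of all probe sets were -0.04 and -0.02. 

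Of 14 Smads and regulators 8 rose and 2 fell after Pou5f1 RNAi, and 4 rose and 2 fell after Nanog RNAi. Smad3, one of the receptor-activated Smads, rose by 1.32 ± 0.09 after Pou5f1 RNAi and by 0.31 ± 0.08 after Nanog RNAi. Skil, which encodes the Smad repressor SnoN, fell by 1.45 ± 0.08 after Pou5f1 RNAi and by 0.29 ± 0.07 after Nanog RNAi. Tgif1, a homeobox repressor that binds Smads, fell by 0.62 ± 0.08 after Pou5f1 RNAi and by 0.56 ± 0.07 after Nanog RNAi. All 6 of these differences were called by limma.

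Among 6 receptor and co-receptor genes 3 rose and 0 fell after Pou5f1 RNAi, and 0 rose and 1 fell after Nanog RNAi. Tgfbr3, the co-receptor betaglycan, rose by 1.98 ± 0.13 after Pou5f1 RNAi (adjusted p = 1.7e-10). Acvr1b, which encodes the type I receptor ALK4 used by Nodal and activin, was at 0.32 ± 0.09 after Pou5f1 RNAi (adjusted p = 0.011) and fell by 0.67 ± 0.09 after Nanog RNAi (adjusted p = 1.2e-05). Without Pou5f1 RNAi replicate 3 the first of these was 0.26 and not called. Of 6 genes for extracellular processing and inhibition 3 rose and 1 fell after Pou5f1 RNAi, and 2 rose and 0 fell after Nanog RNAi. The 4 other ligand and subunit genes measured, Inha, Inhbc, Inhbe and Gdf11, gave 0 calls in each RNAi comparison with limma. At an unadjusted p under 0.05 the count was 0 against vector for both knockdowns and 1 between the knockdowns.

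Genes that the pathway induces in the primitive streak and endoderm were near the middle of the arrays. Of 6 measured, 1 rose and 1 fell after Pou5f1 RNAi, and 3 rose and 0 fell after Nanog RNAi. Their mean level was 4.34 to 4.42 on the Pou5f1 RNAi arrays, 4.75 to 4.98 on the Nanog RNAi arrays and 4.48 to 4.69 on the vector arrays, and these ranges did not overlap. How often other gene sets separate in this way was not counted. The median difference of the 6 from vector was -0.09 after Pou5f1 RNAi (-0.04 over all probe sets) and 0.18 after Nanog RNAi (-0.02 over all). Between the knockdowns it was -0.02 (-0.01 over all). Sox17, an endoderm transcription factor gene, differed by -1.87 ± 0.15 for Pou5f1 RNAi over Nanog RNAi (adjusted p = 3.3e-09). Against vector it fell by 1.27 ± 0.15 after Pou5f1 RNAi and rose by 0.60 ± 0.14 after Nanog RNAi. Foxa2, another endoderm transcription factor gene, rose by 0.64 ± 0.09 after Nanog RNAi (adjusted p = 3.5e-05).

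**Figure D3:**
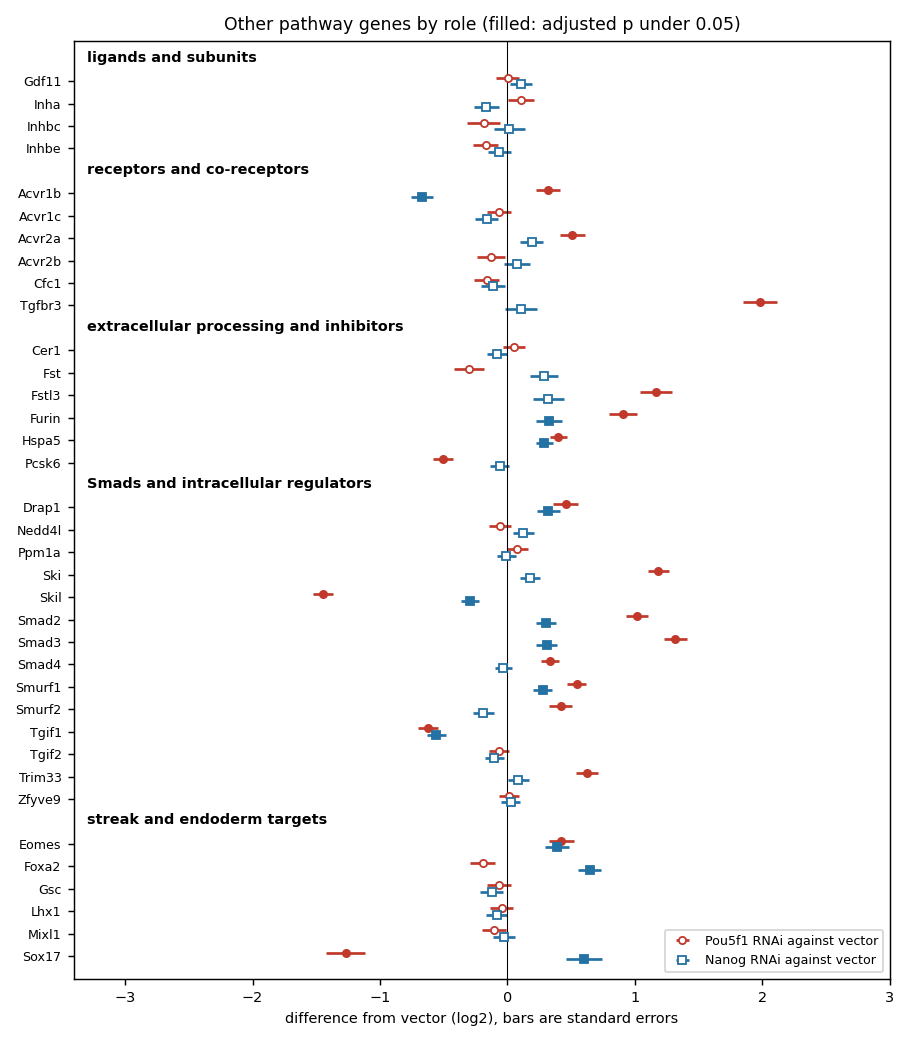
Difference from vector on the log2 scale (points) with its standard error (bars) for the 36 other pathway genes measured on the RNAi arrays, grouped by role, Pou5f1 RNAi in red circles and Nanog RNAi in blue squares, filled where the adjusted p is under 0.05. After Pou5f1 RNAi the widest departures are the rise of Tgfbr3 at 1.98 and the fall of Skil at -1.45. The ligand and subunit genes have open points only.

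In cells treated with differentiation inducers, Tdgf1 and Gdf3 fell with all 3 treatments. In the fit without a dye block, Nodal, Lefty1 and Foxh1 were called between treatments, and Lefty1 and Foxh1 also between days of a treatment. With dye orientation fitted as a block, Tdgf1 and Gdf3 were also called between treatments, and Tdgf1, Gdf3 and Nodal between days. Each value is the log ratio of treated over untreated cells, and the mean ± SE of a treatment covers 3 days with 2 arrays each. No source used here names the log base, which was taken as 2. The untreated cells served as a common reference, so a test of the ratio against 0 leaves out their own spread. Of 7 probes limma called 2 with RA, both lower, where 25.1% of all 16657 probes were called (10.5% lower). With DMSO 4 of 7 were called, 2 lower and 2 higher, where 17% of all were called (7.62% lower and 9.4% higher). With HMBA 6 of 7 were called, all lower, where 24.8% of all were called (11.4% lower). The 6 arrays of a treatment had the same sign at 2 of 7 probes with RA, 4 with DMSO and 5 with HMBA. Among probes with a value on all 6 arrays of the treatment, the shares were 23.1% of 14577, 20.6% of 11088 and 29% of 14795. The median ratio of the 7 probes was -0.20 with RA, -0.05 with DMSO and -0.86 with HMBA, where the medians of all probes were -0.02, 0.02 and 0.00. Markers moved as well, since ES cell markers fell at 8 of 9 genes with RA, 8 of 9 with DMSO and 9 of 9 with HMBA, and trophectoderm markers rose at 3 of 6 measured genes with RA, 1 of 6 with DMSO, where another 1 fell, and 3 of 6 with HMBA. With RA 3 of 5 primitive endoderm markers rose (median of the 5, 1.05), 3 of 6 feeder fibroblast markers rose (median of the 6, 0.81), and of 3 mesoderm markers 2 rose and 1 fell. With DMSO 1 primitive endoderm marker fell, 1 feeder fibroblast marker rose and 1 fell, and 0 of 3 mesoderm markers were called. With HMBA 1 primitive endoderm marker rose and 1 fell, 2 feeder fibroblast markers rose, and 0 of 3 mesoderm markers were called. Their part in the changes of the pathway genes was not tested.

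Over all probes the 2 arrays of a treatment and day correlated at -0.01 to 0.66, and any 2 arrays of the same dye orientation at 0.39 or more. Both arrays of a treatment and day may hold the same RNA extracts, which the labels do not settle. With the swapped arrays averaged and the 3 days taken as replicates, 2 of 7 probes were called with RA (29.7% of all in that fit), 2 with DMSO (19.2%) and 3 with HMBA (29%), and Tdgf1 and Gdf3 were among them in each case. Arrays of the same dye orientation deviated together in all 36 pairs of the 9 treatment and day groups, so dye orientation was also fitted as a block. The block raised the number of member calls with DMSO to 6 and left 2 with RA and 6 with HMBA, where it called 41.2% of all probes with DMSO, 49.5% with RA and 47.9% with HMBA.

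**Figure D4:**
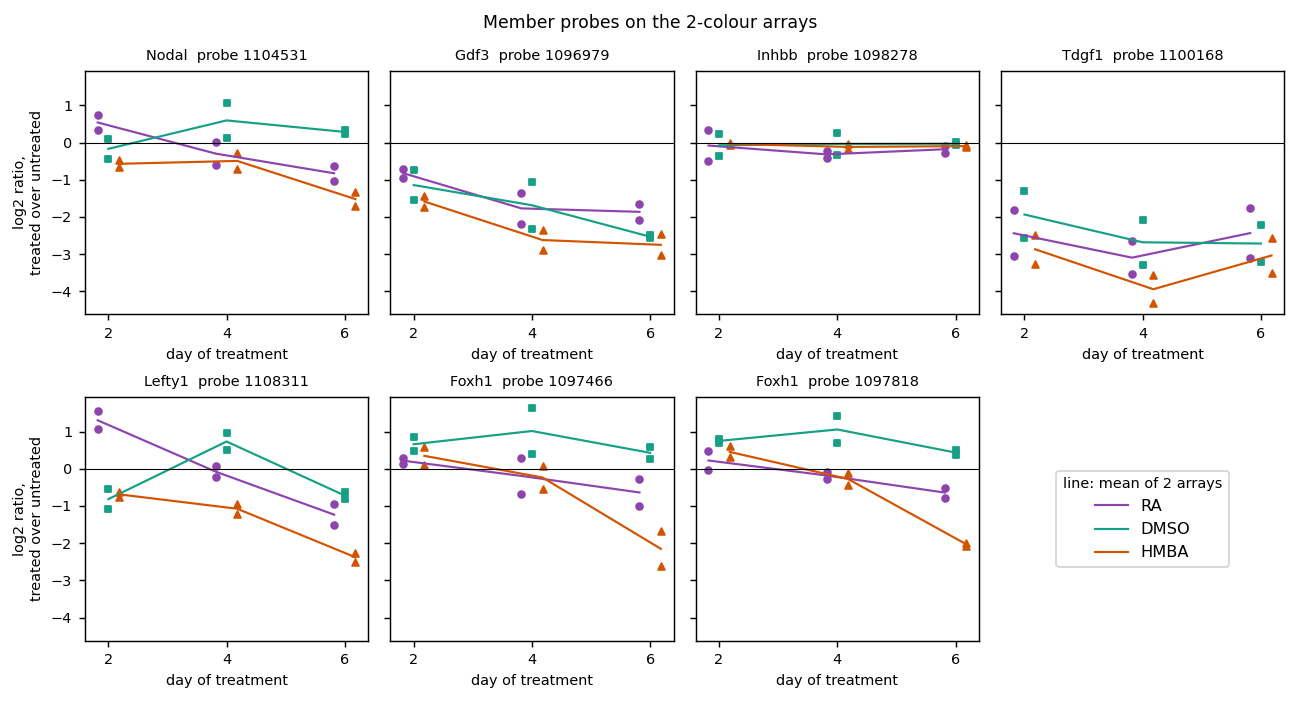
Log2 ratio of treated over untreated cells for the 7 probes by day of treatment, with RA, DMSO and HMBA in different colours, 1 point per array and a line through the mean of the 2 arrays of each day. Tdgf1 and Gdf3 lie below 0 on every array. Lefty1 starts above 0 on day 2 of RA and lies below 0 on day 6.

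Tdgf1, probe 1100168, had the lowest ratios of the 7 probes. With RA the 2 arrays gave -1.82 and -3.06 on day 2, -2.66 and -3.54 on day 4 and -1.77 and -3.11 on day 6. With DMSO they gave -1.31 and -2.57, -2.08 and -3.29, and -2.23 and -3.20 on the same days, and with HMBA -2.49 and -3.26, -3.57 and -4.32, and -2.57 and -3.51. All 18 ratios were below 0, and on each day the array with treated cells in Cy5 was lower than the one with treated cells in Cy3. The means were -2.66 ± 0.27 with RA, 6.31-fold lower (adjusted p = 1.39e-05), -2.45 ± 0.27 with DMSO, 5.45-fold lower (adjusted p = 4.50e-05), and -3.29 ± 0.27 with HMBA, 9.75-fold lower (adjusted p = 2.51e-06). Differences between treatments were not called without the dye block. With it, RA over HMBA was 0.63 (adjusted p = 4.1e-04) and DMSO over HMBA 0.84 (adjusted p = 4.1e-05).

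Gdf3, probe 1096979, was below 0 on all 18 arrays as well. Its ratios with RA were -0.70 and -0.95 on day 2, -2.18 and -1.36 on day 4 and -2.07 and -1.66 on day 6. With DMSO they were -1.54 and -0.75, -2.32 and -1.06, and -2.58 and -2.49, and with HMBA -1.74 and -1.43, -2.89 and -2.35, and -3.04 and -2.47. The lowest day mean came on day 6 of each treatment, at -1.86 with RA, -2.53 with DMSO and -2.75 with HMBA. Over all days the means were -1.49 ± 0.17 with RA (adjusted p = 4.67e-05), -1.79 ± 0.17 with DMSO (adjusted p = 1.71e-05) and -2.32 ± 0.17 with HMBA (adjusted p = 1.16e-06). With the dye block RA over HMBA was called at 0.83 (adjusted p = 6.4e-04) and DMSO over HMBA at 0.53 (adjusted p = 0.0294). The same block called the day 6 over day 2 change of Gdf3 in each treatment, at -1.04 with RA (adjusted p = 0.0140), -1.39 with DMSO (adjusted p = 0.00176) and -1.17 with HMBA (adjusted p = 0.00654), none of which was called without it.

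Nodal, probe 1104531, fell with HMBA. Its ratios were 0.35 and 0.73 on day 2, -0.60 and 0.00 on day 4 and -1.03 and -0.63 on day 6 of RA. With DMSO they were -0.45 and 0.11, 0.13 and 1.06, and 0.34 and 0.23, and with HMBA -0.66 and -0.48, -0.71 and -0.28, and -1.72 and -1.32. All 6 HMBA arrays were below 0, while RA and DMSO arrays lay on both sides of it. The mean was -0.86 ± 0.14 with HMBA, 1.82-fold lower (adjusted p = 5.51e-04), -0.20 ± 0.14 with RA (adjusted p = 0.369) and 0.24 ± 0.14 with DMSO (adjusted p = 0.316, and 0.0303 with the dye block). The day 6 over day 2 change with RA was -1.37 ± 0.34 (adjusted p = 0.097, and 2.66e-04 with the block), and with HMBA it was -0.95 ± 0.34 (adjusted p = 0.326, and 0.00529 with the block).

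Lefty1, probe 1108311, encodes the Nodal inhibitor and differed between days as well as treatments. With RA its ratios were 1.06 and 1.55 on day 2, -0.23 and 0.07 on day 4 and -1.52 and -0.95 on day 6. With DMSO they were -1.07 and -0.56 on day 2, 0.50 and 0.97 on day 4 and -0.63 and -0.80 on day 6, and with HMBA -0.62 and -0.75, -1.20 and -0.94, and -2.26 and -2.50. RA arrays were thus highest on day 2 and lowest on day 6, DMSO arrays were above 0 on day 4 only, and HMBA arrays were below 0 on every day. With RA the mean over days was -0.00 ± 0.12, since its days lay on both sides of 0. The mean was -1.38 ± 0.12 with HMBA, 2.60-fold lower (adjusted p = 2.92e-06), and -0.27 ± 0.12 with DMSO (adjusted p = 0.151, and 0.0219 with the dye block). With arrays scaled to a common spread the DMSO value was -0.40 and called (adjusted p = 0.0363). With the swapped arrays averaged the HMBA fall had an adjusted p of 0.0514. Without the DMSO day 4 arrays, a fit added after seeing the data because 1 of these arrays holds the fewest values (11257 of 21106), the DMSO mean was -0.77 and called (adjusted p = 0.00381).

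The 2 Foxh1 probes moved in opposite directions with DMSO and HMBA. Probe 1097818 was at 0.47 and -0.03 on day 2, -0.27 and -0.09 on day 4 and -0.77 and -0.51 on day 6 of RA. With DMSO it was at 0.69 and 0.81, 0.68 and 1.43, and 0.50 and 0.38, and with HMBA at 0.60 and 0.31, -0.43 and -0.11, and -2.06 and -1.99. Every DMSO array was above 0, and the HMBA arrays were above 0 on day 2 and below it on days 4 and 6. The mean was 0.75 ± 0.11 with DMSO, 1.68-fold higher (adjusted p = 4.32e-04), -0.62 ± 0.11 with HMBA, 1.53-fold lower (adjusted p = 0.00118), and -0.20 ± 0.11 with RA (adjusted p = 0.231). Probe 1097466 ranged over -0.99 to 0.30 with RA, 0.27 to 1.64 with DMSO and -2.62 to 0.59 with HMBA, and gave means of 0.70 ± 0.19 with DMSO (adjusted p = 0.0240), -0.68 ± 0.19 with HMBA (adjusted p = 0.0205) and -0.20 ± 0.19 with RA. Its DMSO call was lost without day 2 replicate 2 (0.64), day 4 replicate 2 (0.50), day 6 replicate 1 (0.76), day 6 replicate 2 (0.65) or both day 4 arrays (0.55), and its HMBA call without replicate 1 of day 2 (-0.60), day 4 (-0.57) or day 6 (-0.52). With the swapped arrays averaged, neither Foxh1 probe was called with DMSO or HMBA.

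Inhbb, probe 1098278, stayed close to untreated cells. Its ratios ranged over -0.50 to 0.34 with RA, -0.37 to 0.27 with DMSO and -0.18 to -0.02 with HMBA. All 6 HMBA ratios were slightly below 0, and the RA and DMSO ratios lay on both sides of it. None of the means was called, and their 95% intervals were -0.46 to 0.07 with RA, -0.31 to 0.22 with DMSO and -0.35 to 0.18 with HMBA.

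Between treatments the clearest contrast was DMSO over HMBA. There 4 of 7 probes were called, all higher with DMSO, where 1.45% of all probes were called (0.486% higher). These were Foxh1 1097818 at 1.36 ± 0.16 (adjusted p = 5.84e-04), Foxh1 1097466 at 1.38 ± 0.27 (adjusted p = 0.0255), Lefty1 at 1.11 ± 0.16 (adjusted p = 0.00412) and Nodal at 1.10 ± 0.20 (adjusted p = 0.0152). RA over DMSO called 1 of 7 (6.19% of all), Foxh1 1097818 at -0.95 ± 0.16. RA over HMBA called 1 of 7 (3.28% of all), Lefty1 at 1.38 ± 0.16. With the dye block the counts were 6 for DMSO over HMBA (9.68% of all in that fit), 3 for RA over DMSO (22.7%) and 6 for RA over HMBA (16.5%), and with swapped arrays averaged and days as replicates 0 in each (0%, 3.92% and 1.61% of all).

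Several of these calls were lost when 1 array was left out. Calls over all probes dropped too, for DMSO over HMBA to 123 to 191 in place of 242. A treatment and day without 1 of its arrays also has only 1 dye orientation. For DMSO over HMBA the Foxh1 1097466 call was lost when any 1 of 9 of the 12 arrays was left out, with values of 1.18 to 1.46. These arrays were replicates 1 and 2 of DMSO day 2, replicate 2 of DMSO day 4, replicates 1 and 2 of DMSO day 6, replicates 1 and 2 of HMBA day 2, and replicate 1 of HMBA days 4 and 6. The Nodal call was lost without DMSO day 2 replicate 2, DMSO day 6 replicate 1, or replicate 1 of HMBA day 2, 4 or 6, at 1.01 to 1.08. A further fit held no DMSO day 4 arrays and compared the means of days 2 and 6 in both treatments. There Foxh1 1097466 was at 1.45 (adjusted p = 0.0652) and Lefty1 at 0.77 (adjusted p = 0.176), which left 2 of 7 called.

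From day 2 to day 6, Lefty1 fell with RA and with HMBA, and Foxh1 fell with HMBA. With RA 1 of 7 probes was called (1.09% of all), Lefty1 at -2.54 ± 0.28, 5.81-fold lower on day 6 than on day 2 (adjusted p = 9.73e-04). With HMBA 3 of 7 were called (1.48% of all): Foxh1 1097818 at -2.48 ± 0.27 (adjusted p = 5.01e-04), Foxh1 1097466 at -2.50 ± 0.47 (adjusted p = 0.0203) and Lefty1 at -1.69 ± 0.28 (adjusted p = 0.00948). With DMSO limma called 0 of 7 (0.955% of all), with 1 of 7 at an unadjusted p under 0.05. The dye block called 5 of 7 with RA (10.6% of all in that fit), 2 with DMSO (9.89%) and 5 with HMBA (10%). With RA these included both Foxh1 probes, 1097466 at -0.86 (adjusted p = 0.0208) and 1097818 at -0.86 (adjusted p = 0.0226). Day means of Foxh1 1097818 with HMBA were 0.45 on day 2, -0.27 on day 4 and -2.03 on day 6. Each of these tests rests on 2 arrays a day, and 2 of the HMBA calls were lost when 1 array was left out. Over all probes, leaving out 1 array gave 70 to 98 HMBA calls in place of 246. Foxh1 1097466 was not called without day 2 replicate 1 (-2.74) or 2 (-2.26) or day 6 replicate 1 (-2.03), and Lefty1 was not called without any 1 of the 4 HMBA arrays of these days (-1.81 to -1.57).

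Whether these courses differed between treatments was tested as the difference of the changes from day 2 to day 6, a test added after seeing the data. For RA minus DMSO 1 of 7 probes was called (0.102% of all), Lefty1 at -2.64 ± 0.40 (adjusted p = 0.0292). For DMSO minus HMBA 1 of 7 was called (0.198% of all), Foxh1 1097818 at 2.17 ± 0.38 (adjusted p = 0.0468). For RA minus HMBA limma called 0 of 7 (0.03% of all), with 2 of 7 at an unadjusted p under 0.05. For Lefty1 RA minus HMBA was -0.85 (adjusted p = 1.00, and 0.264 with the dye block) and DMSO minus HMBA 1.79 (adjusted p = 0.156). With the dye block 2, 4 and 2 of 7 were called in these 3 comparisons (1.96%, 2.63% and 1.35% of all), which added Nodal for RA minus DMSO at -1.82 (adjusted p = 0.00131), Nodal, Lefty1 and Foxh1 1097466 for DMSO minus HMBA, and both Foxh1 probes for RA minus HMBA at 1.62 and 1.64. The Foxh1 1097818 call without the block was lost when any 1 of the 8 arrays concerned was left out (2.02 to 2.32). The Lefty1 call was lost when any of 7 of its 8 arrays was left out (-2.92 to -2.35), all but RA day 2 replicate 1, and with arrays scaled to a common spread (-2.48, adjusted p = 0.0858). Over all probes, leaving out 1 array gave 0 to 18 calls for RA minus DMSO in place of 17. For DMSO minus HMBA it gave 3 to 13 in place of 33.

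Of the other 40 pathway genes 27 were tested on the 2-colour arrays. With RA 7 rose and 3 fell, with DMSO 7 rose and 2 fell, and with HMBA 6 rose and 3 fell. Of all probes 25.1% were called with RA, 17% with DMSO and 24.8% with HMBA. With the dye block 14 were called with DMSO in place of 9, where the block called 41.2% of all probes. Leaving out DMSO day 4 replicate 1 or 2 gave 4 or 5 calls with DMSO, leaving out HMBA day 2 replicate 1 or 2, day 4 replicate 1 or day 6 replicate 1 gave 5 with HMBA, and leaving out RA day 4 replicate 2 gave 6 with RA. Over all probes, leaving out 1 array gave 1932 to 2326 calls with DMSO, 3054 to 3367 with HMBA and 3162 to 4070 with RA. Between treatments, 5 of the 27 genes were called for RA over DMSO (6.19% of all probes), 4 for RA over HMBA (3.28%) and 0 for DMSO over HMBA (1.45%). For DMSO over HMBA 5 passed an unadjusted p under 0.05. The dye block called 10, 7 and 5 in these comparisons, where it called 22.7%, 16.5% and 9.68% of all probes.

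Furin, a protease that matures the ligand precursors, rose by 1.05 ± 0.08 with RA, 0.66 ± 0.08 with DMSO and 0.89 ± 0.08 with HMBA. Fst, which encodes the activin-binding inhibitor follistatin, rose by 2.12 ± 0.19 with RA (adjusted p = 8.1e-06) and by 1.52 ± 0.22 with DMSO (adjusted p = 4.8e-04). With HMBA Fst was at 0.57 ± 0.19 (adjusted p = 0.046), a call lost without HMBA day 2 replicate 1 or 2, day 4 replicate 1 or day 6 replicate 1, at 0.41 to 0.64. Smad3 rose with each treatment, by 1.19 ± 0.19 with RA, 0.85 ± 0.17 with DMSO and 0.98 ± 0.15 with HMBA. Smad2, the other receptor-activated Smad gene, rose by 0.70 ± 0.09 with RA (adjusted p = 7.3e-05). Tgif1 fell by 1.05 ± 0.21 with HMBA (adjusted p = 0.0022), and was also called lower with RA and with DMSO. The RA call was lost without RA day 4 replicate 2 (-0.68). The DMSO call was lost without replicate 2 of day 2 (-0.56), day 4 (-0.55) or day 6 (-0.54), and with swapped arrays averaged (-0.69). Gdf1, a ligand that acts together with Nodal, was at 0.44 ± 0.11 with RA, -0.77 ± 0.12 with DMSO and -0.46 ± 0.11 with HMBA, all called, the RA value not without RA day 4 replicate 2 (0.39).

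Tdgf1 and Gdf3 were lower after Pou5f1 RNAi and with all 3 treatments, which also lowered Pou5f1, by 1.93 ± 0.11 with RA, 0.62 ± 0.11 with DMSO and 1.47 ± 0.11 with HMBA. ES cell markers, with Pou5f1 among them, fell at 8 of 9 genes with RA, 8 of 9 with DMSO and 9 of 9 with HMBA. Whether the fall of Pou5f1 had a part in these changes was not tested. Nodal, Lefty1 and Foxh1 were lower after Pou5f1 RNAi and, over the mean of days, with HMBA. Both Foxh1 probes were above 0 on day 2 of HMBA. With swapped arrays averaged, the HMBA falls of Lefty1 and Foxh1 were not called. In the fit of all 18 arrays with no dye block Nodal, Lefty1 and Foxh1 were not called lower over the mean of days with RA or DMSO. Other fits called Lefty1 lower with DMSO, as given above. The arrays differ in design and processing, so sizes are not compared between them.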

How the data were processed

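RNA of E14 mouse ES cells was measured on 14 Affymetrix mouse genome arrays and 18 custom 2-colour arrays. The deposited values are log2 levels made by the authors with RMA, per the submitters' processing notes (version not given there). The deposited 2-colour values are log ratios that the authors, per the labels, had turned to sample over reference on every array. Their base was taken as 2, and no source used here says how they were background-corrected or normalized. All columns of per-sample values were used.

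Control probe sets (64 of 45101) were left out, and no further scaling was applied. A 2-colour probe was tested if it had a value for each treatment and day (16657 of 21106), with missing values left out; the member probes lacked none. Each platform was fitted once with limma 3.58.1 (R 4.3.3): the 3 RNAi groups, or the 9 treatment and day means, of which 3 make a treatment's mean. p-values were adjusted by Benjamini and Hochberg over all probes, and an adjusted p under 0.05 was called. Every adjusted p in the text is from limma. The number of arrays limits the precision. The fits were also run on simulated data with independent noise on each array and no dye effect. That run does not cover the shared deviations of 2-colour arrays of the same dye orientation. Figures were drawn with matplotlib 3.10.9 (Python 3.11.15).

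The text names the 9 genes at every probe annotated to 1 symbol, the 3 genes of smallest p among 40 other pathway genes per RNAi comparison and treatment mean, the 3 nearest profiles of 5 genes, and Pou5f1 and Nanog. Members, gene lists and marker lists were chosen with earlier results of these data known. Replicate numbers on the RNAi arrays were not taken as pairs, since deviations of same-numbered arrays correlated above 0.1 in only 5 of 13 cases, although in 4 of the 5 between vector and Nanog RNAi (0.09 to 0.44). On the 2-colour arrays the number is the dye orientation, and deviations of arrays of the same orientation correlated at 0.51 to 0.92 in all 36 pairs of groups. Alternatives were the replicate block, each array left out, other variance models, scalings and filters, and swapped arrays averaged.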

Additional observations from a re-analysis of the deposited data

Results flagged for a closer look

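Of 48 combinations of a probe set and an RNAi group, 9 held 1 array far from the others of its group by Dixon's criterion at 95%, where chance alone marks about 1 in 20. These were Lefty1 on Pou5f1 RNAi replicate 4 (6.14), Lefty2 on Pou5f1 RNAi replicate 3 (4.65) and vector replicate 5 (7.21), Tdgf1 on Nanog RNAi replicate 4 (11.38) and Inhba 1458291_at on Nanog RNAi replicate 3 (4.37). Nanog RNAi replicate 5 stood apart at 3 of the 9, Foxh1 1422212_at (8.15), Foxh1 1422213_s_at (8.47) and Inhbb 1426859_at (4.83), and vector replicate 4 at Foxh1 1422212_at (7.17).

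Between days and treatments, a test of the difference itself marked 6 results. The change from day 2 to day 6 was -2.54 for Lefty1 with RA, -1.69 for Lefty1 with HMBA, and -2.50 and -2.48 for Foxh1 probes 1097466 and 1097818 with HMBA. The difference between changes was -2.64 for Lefty1, RA minus DMSO, and 2.17 for Foxh1 1097818, DMSO minus HMBA.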

How the results depend on the processing

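Of the values of single member probes under all alternatives, 1613 stayed on the same side of the threshold, 64 lost a call and 31 gained one. Among values called in the main fit 0 changed direction, and some values that were not called changed sign. The replicate block changed no member call on the RNAi arrays (12, 8 and 13 of 16 called) and moved the counts over all probe sets there to 16023 for Pou5f1 RNAi and 8255 for Nanog RNAi against vector. Leaving out 1 array gave 11 to 13 calls after Pou5f1 RNAi, 6 to 8 after Nanog RNAi and 13 between the knockdowns. Over all probe sets it gave 12748 to 14764, 6160 to 7181 and 12004 to 13158 calls in these comparisons. On the 2-colour arrays the replicate block, which is the dye orientation, gave 3 calls for RA over DMSO, 6 for RA over HMBA, 5, 2 and 5 for day 6 over day 2 with RA, DMSO and HMBA, and 2, 2 and 4 for the differences of these changes (RA minus DMSO, RA minus HMBA, DMSO minus HMBA). Over all probes it gave 8230 calls with RA in place of 4182, 6854 with DMSO in place of 2834 and 7970 with HMBA in place of 4137. With swapped arrays averaged and days as replicates 2 member calls remained in number with DMSO, 3 with HMBA and 0 between treatments, and changes between days could not be fitted. Without the DMSO day 4 arrays, and with days 2 and 6 only of both treatments compared, DMSO over HMBA gave 2. With arrays scaled to a common spread the Lefty1 difference of changes was lost, which left 0, while Lefty1 with DMSO was gained, which made 5. Leaving out 1 array gave 2 calls with RA, 3 to 4 with DMSO, 5 to 6 with HMBA, 1 to 2 for RA over DMSO, 1 for RA over HMBA, 2 to 4 for DMSO over HMBA, 1, 0 and 1 to 2 for day 6 over day 2 with RA, DMSO and HMBA, and 0 to 1, 0 and 0 for the differences of changes. Over all probes it gave 3162 to 4070 calls with RA, 1932 to 2326 with DMSO and 3054 to 3367 with HMBA. Between treatments it gave 696 to 1162 for RA over DMSO, 386 to 693 for RA over HMBA and 123 to 191 for DMSO over HMBA. For day 6 over day 2 it gave 48 to 259, 18 to 39 and 70 to 98 with RA, DMSO and HMBA. For the differences of changes it gave 0 to 18, 3 to 11 and 3 to 13, in the order given above. The cause of these shifts was not tested. Each day has 2 arrays, 1 shared reference and no measure of its spread, and 10763 of 21106 probes have a value on all 18 arrays.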
